A study of Drosophila melanogaster with 12 samples.

Results

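The genes described here make, move and recycle the visual chromophore of the fly, or fold the opsin that carries it. They were chosen by name as Pdh, ninaB, ninaD, santa-maria and ninaA. Of these 5 genes, 3 (Pdh, ninaB and santa-maria) had 1 probe set each that the platform annotation assigned to that gene alone, out of 10843 genes with such a probe set on the array. ninaD and ninaA had none and were not analysed here. All 3 measured probe sets passed the filter on low values, which left 11156 of 13966 probe sets for testing. A further probe set, shared by Pdh and CG15024, stayed below the filter at a mean of 3.31 log2 (range 3.13 to 3.52) and was not used.

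Transcript levels were profiled in pooled heads of adult cn bw flies, which carry mutations in the eye pigment genes cinnabar and brown and serve in the study as a wild-type strain for the clock, on 12 single-channel arrays. All flies had first been kept in constant darkness under a thermocycle of 12 h at 18 °C and 12 h at 25 °C for more than 4 days, and were then held at constant 25 °C, still in darkness. Heads were collected every 4 h from AA2 to AA46, where AA0 marks the onset of the subjective cryophase, the part of the day that had been cold. The subjective thermophase covered the collections at 14, 18 and 22 h after that onset and the subjective cryophase those at 2, 6 and 10 h, so that 6 arrays fell in each. Day 2 held the collections AA26 to AA46 and day 1 those from AA2 to AA22, again 6 arrays each, with every time of day sampled once per day. The age of the flies is not stated in the labels. The study used a further set of cn bw flies for these collections, over the first 2 days at constant temperature. The days are thus successive collections of that set and not biological replicates. The p-values therefore reflect variation among these arrays, which may be technical.

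Array medians lay between 5.64 and 5.67 log2. The array of AA46 stood apart, with a mean correlation of 0.992 with the other arrays, against 0.996 to 0.997 for each of the other 11, and a mean 18S ribosomal control signal of 4.09 log2, against 2.78 to 2.99 log2 on those 11. All 7 photoreceptor markers with a probe set of their own, out of 10 listed, passed the filter, as did 11156 of 13966 probe sets. The means of the 7 markers ran from 9.26 log2 for inaC to 13.11 log2 for Arr1, the arrestin 1 gene, all above the array medians.

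Flies cannot make retinoids from scratch and build their chromophore, 3-hydroxyretinal, from dietary carotenoids. NinaD and Santa-maria, both class B scavenger receptors, bring carotenoids into cells, and NinaB cleaves and isomerizes them to retinal. Retinal pigment cells recycle the chromophore, with Pdh acting there as a retinol dehydrogenase, whereas NinaA is a cyclophilin that escorts the opsin Rh1 out of the endoplasmic reticulum of photoreceptors. No sequence of these genes was used.

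The first question was whether these transcripts kept a 24-h profile after the thermocycle had stopped. Pdh did so only at the unadjusted level, with high values through the subjective cryophase and a dip at 14 h on both days, whereas neither ninaB nor santa-maria passed. Rhythmicity was expressed as F24, the part of a probe set's variance among the 12 arrays that a 24-h cosine and sine together accounted for, and a local p was obtained from 100000 permutations of the time order of each probe set. Thus 1 of the 3 measured genes had a local p under 0.05, in a background of 6.13% of all tested probe sets. After Benjamini-Hochberg adjustment over the 11156 probe sets no gene passed, and the background was 0%. A single probe set at the smallest local p that 100000 permutations can give, 1e-05, reaches an adjusted p of only 0.112. The 0% is therefore in part a limit of the permutations.

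**Figure D1:**
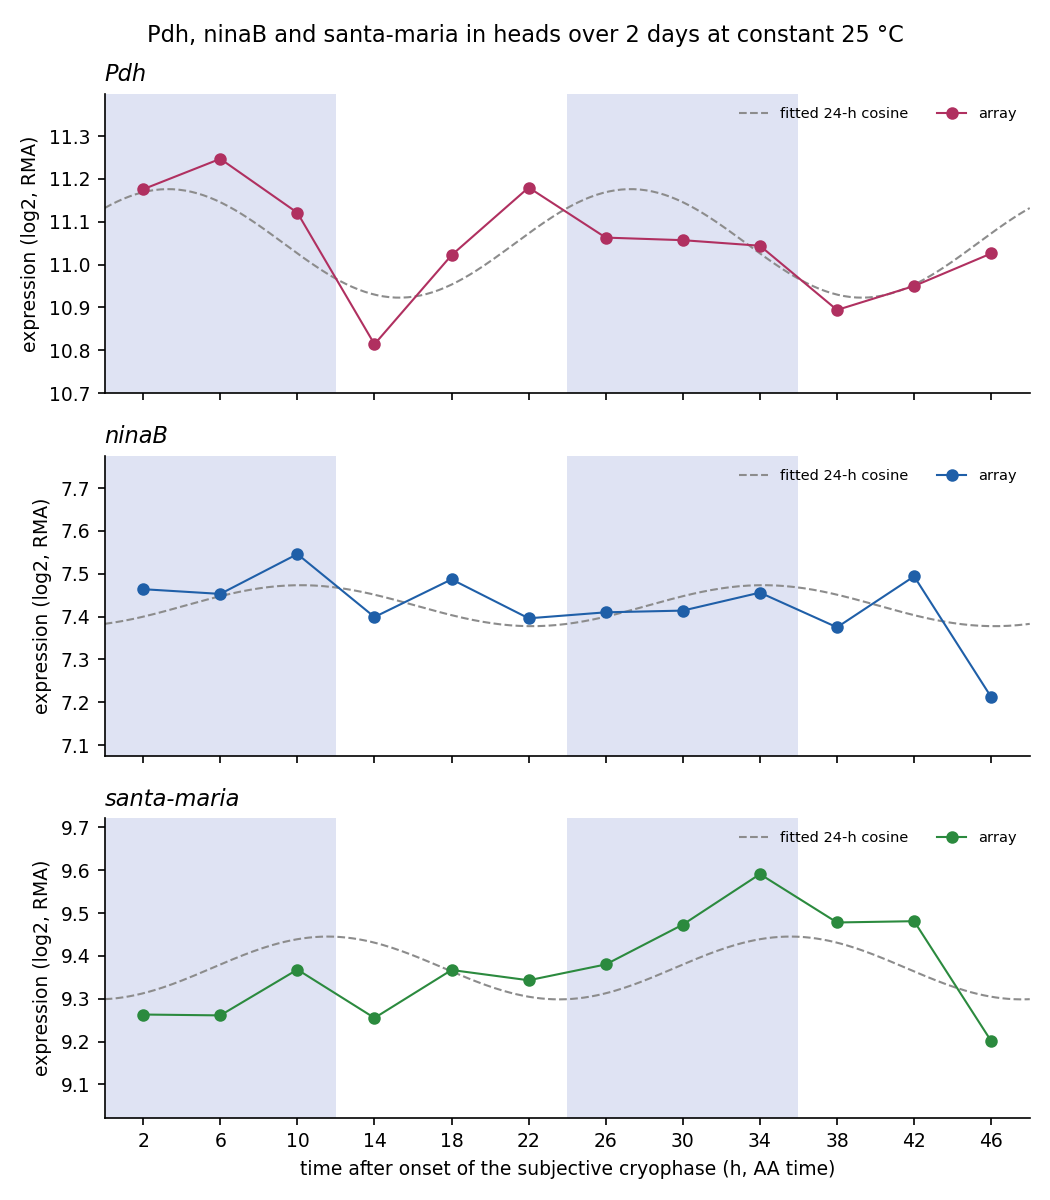
Expression (log2, RMA) of Pdh, ninaB and santa-maria against AA time in hours, with 1 point per array, the fitted 24-h cosine as a dashed line and the subjective cryophase shaded. Pdh was lowest at 14 h on both days, and ninaB and santa-maria were lowest on the last array, AA46.

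Pdh, the retinol dehydrogenase of the recycling step, had 11.18, 11.25, 11.12, 10.81, 11.02 and 11.18 log2 at AA2, AA6, AA10, AA14, AA18 and AA22. At AA26, AA30, AA34, AA38, AA42 and AA46 it had 11.06, 11.06, 11.04, 10.89, 10.95 and 11.03 log2. The lowest array of each day was thus the first of the subjective thermophase, and the values climbed again over the next 2 collections. The fitted cosine had a peak-to-trough difference of 0.25 ± 0.07 log2 (SE, n = 12), or 1.19-fold, and peaked at 3.29 ± 1.10 h (SE). F24 was 0.57, against a median of 0.13 over all tested probe sets, with a local permutation p of 0.0212 and an adjusted p of 0.659. An F test of the same cosine in limma gave an adjusted p of 0.595, and 0.296% of all tested probe sets passed it. Without AA14 or without AA38, the arrays of the dip, the local permutation p was 0.0679 and 0.0526, no longer under the threshold, while the peak-to-trough difference was 0.21 and 0.24 log2.

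Fitted within each day, the peak of Pdh lay at 3.79 ± 1.04 h on day 2 and at 3.06 ± 1.27 h on day 1 (SE, n = 6 each). On day 2 the fit spanned 0.16 ± 0.04 log2 from peak to trough, and on day 1 it spanned 0.35 ± 0.12 log2. Whether these spans differed was not tested. Averaged over the days, the levels of Pdh ran in the order 6, 2, 22, 10, 18 and 14 h from high to low. Only the steps between 10 and 18 h (0.10 log2) and between 18 and 14 h (0.13 log2) exceeded the pooled SD between days of 0.09 log2. The study lists Pdh among its selected transcripts. Some of the data behind that list came from these arrays, and the text read here does not show which data selected Pdh, so the listing was not taken as independent evidence of the profile.

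ninaB, the carotenoid cleavage enzyme, stayed between 7.21 and 7.55 log2. Its values were 7.46, 7.45, 7.55, 7.40, 7.49 and 7.40 log2 from AA2 to AA22, and 7.41, 7.41, 7.46, 7.38, 7.49 and 7.21 log2 from AA26 to AA46. The 2 days had their local maxima at the same times, 10 and 18 h, and AA46 was the lowest array by a wide step. The fitted peak-to-trough difference was 0.10 ± 0.07 log2 (SE, n = 12), or 1.07-fold, with an F24 of 0.18 and a local permutation p of 0.439 (adjusted p = 1.00). In the order 10, 18, 2, 6, 14 and 22 h, only the last step, 0.08 log2 between 14 and 22 h, exceeded the pooled SD between days of 0.06 log2. The spread of ninaB over the arrays was small, with an SD of 0.08 log2 against a median of 0.10 log2 over all tested probe sets.

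santa-maria, the carotenoid receptor of neurons and glia, had 9.26, 9.26, 9.37, 9.26, 9.37 and 9.34 log2 from AA2 to AA22. On day 2 it had 9.38, 9.47, 9.59, 9.48, 9.48 and 9.20 log2 from AA26 to AA46. The first 5 arrays of day 2 all lay above every array of day 1, and AA46 lay below them all. Its fitted peak-to-trough difference was 0.15 ± 0.09 log2 (SE, n = 12), or 1.11-fold, with an F24 of 0.22 and a local permutation p of 0.331 (adjusted p = 1.00). Fitted within days, it spanned 0.30 ± 0.10 log2 from peak to trough on day 2, with a peak at 10.8 ± 1.3 h, and 0.06 ± 0.07 log2 on day 1, where the span was within its SE and gave no usable peak time. No step in its order of 10, 18, 6, 14, 2 and 22 h exceeded the pooled SD between days of 0.13 log2.

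Next, the phases of the former thermocycle were compared directly with limma. None of the 3 measured genes passed at an adjusted p under 0.05, in a background of 0.251% of all tested probe sets (0.117% higher and 0.134% lower in the thermophase), while 1 of 3, Pdh, had an unadjusted p under 0.05, as did 7.49% of all. The estimates of all 3 genes were negative, beside a median of 0.01 log2 over all tested probe sets. Those of ninaB and santa-maria had 95% intervals that held values of both signs.

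Pdh ranged from 10.81 to 11.18 log2 in the thermophase (median 10.99) and from 11.04 to 11.25 log2 in the cryophase (median 11.09). In the thermophase, 5 of the 6 arrays lay below every cryophase array, and the exception was AA22. Pdh averaged 10.98 ± 0.13 log2 in the thermophase and 11.12 ± 0.08 log2 in the cryophase (SD, n = 6 each), a difference of -0.14 ± 0.06 log2 (SE, 95% interval -0.26 to -0.01) or 0.909-fold, with a limma adjusted p of 0.626. ninaB averaged 7.39 ± 0.10 log2 in the thermophase and 7.46 ± 0.05 log2 in the cryophase, and the difference of -0.06 ± 0.05 log2 had an interval of -0.17 to 0.04 and a limma adjusted p of 0.8285. santa-maria averaged 9.35 ± 0.11 log2 in the thermophase and 9.39 ± 0.13 log2 in the cryophase. The estimate was -0.04 ± 0.06 log2 (95% interval -0.17 to 0.10, limma adjusted p = 0.934), and it changed sign to 0.01 log2 without AA34 and to 0.004 log2 with array quality weights.

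**Figure D2:**
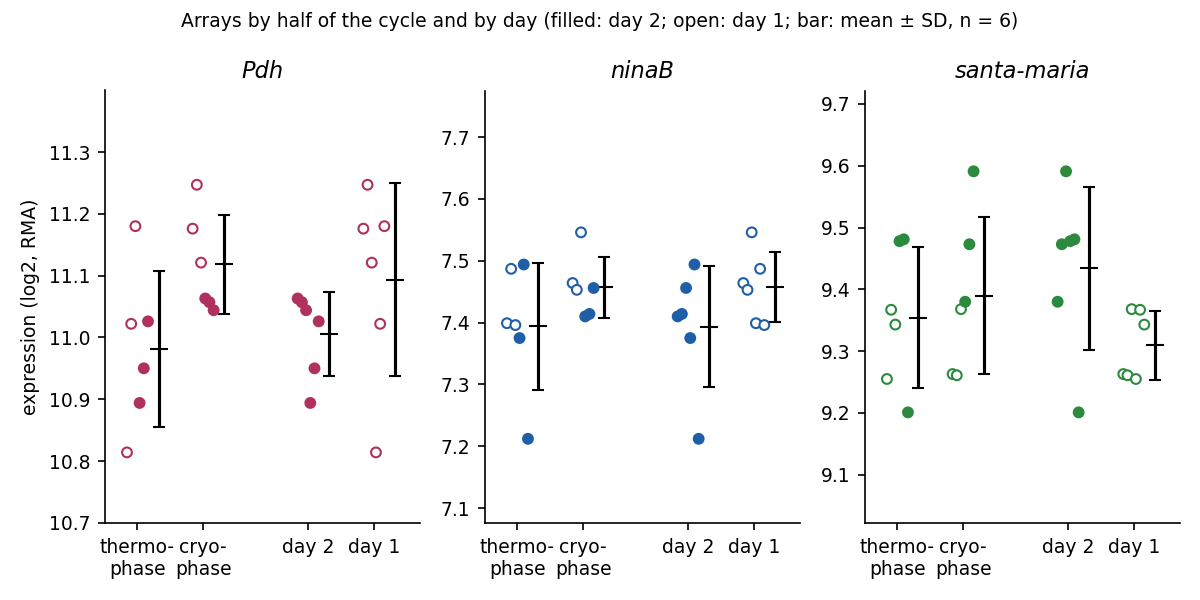
Expression (log2, RMA) of each gene on single arrays, by phase of the former thermocycle and by day, with filled points for day 2, open points for day 1 and bars for the mean ± SD (n = 6). The groups of each gene overlapped in both comparisons.

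Markers of other cell types were set beside this contrast. The mean log2 level of the 4 measured glial markers ranged from 7.32 to 7.72 log2 in the thermophase and from 7.54 to 7.73 log2 in the cryophase, and none of them passed. The 7 fat body probe sets averaged 11.44 ± 0.30 log2 in the thermophase and 11.60 ± 0.28 log2 in the cryophase (SD), with 6 of 7 estimates negative. For the 7 photoreceptor markers the means were 11.28 ± 0.08 and 11.24 ± 0.10 log2, with 2 of 7 estimates negative. No marker of these 2 lists was called between the phases. Among 3 measured genes listed as markers of pigment and cone cells (st, bw and prom), 1 was called higher in the thermophase, beside 0.117% of all tested probe sets. That gene, bw, is itself mutated in this strain and was singled out after its values were seen. It had the only local p of its list under 0.05, 1e-05, which is the smallest that the permutations can give (adjusted p = 0.112). A second probe set of bw stayed below the filter, at a mean of 4.00 log2, and was not tested. The mean of the 3 measured markers ranged from 7.06 to 7.30 log2 in the thermophase and from 6.93 to 7.19 log2 in the cryophase. Pdh acts in pigment cells, so this mean over a mixed list does not follow its cells alone. How far each marker is confined to the listed cells was not tested. In samples of whole heads, fewer cells of a type and less RNA per cell cannot be told apart, and the part of these markers in the result for Pdh was not tested.

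The collections of day 2 and day 1 were then compared with time of day in the fit. None of the 3 genes passed at an adjusted p under 0.05, in a background of 1.61% of all tested probe sets (0.412% higher and 1.2% lower on day 2). At an unadjusted p under 0.05 there was 1 of 3, santa-maria, beside 14.8% of all. The direction was not shared: santa-maria was higher on day 2 at 5 of 6 times of day, whereas Pdh and ninaB were each lower at 5 of 6.

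santa-maria ranged from 9.20 to 9.59 log2 on day 2 (median 9.48) and from 9.25 to 9.37 log2 on day 1 (median 9.30). Its averages were 9.43 ± 0.13 log2 on day 2 and 9.31 ± 0.06 log2 on day 1 (SD, n = 6 each), a difference of 0.12 ± 0.06 log2 (SE, 95% interval 0.0035 to 0.25) or 1.09-fold, with a limma adjusted p of 0.322. The pair at 22 h was the exception, at -0.14 log2, and it holds AA46, the array that stood apart. Without that pair the difference was 0.18 log2 with a limma adjusted p of 0.0498, which is under the threshold, in a fit that called 379 probe sets in place of 180. Pdh averaged 11.01 ± 0.07 log2 on day 2 and 11.09 ± 0.16 log2 on day 1, a difference of -0.09 ± 0.05 log2 (95% interval -0.19 to 0.02, limma adjusted p = 0.444). ninaB averaged 7.39 ± 0.10 log2 on day 2 and 7.46 ± 0.06 log2 on day 1, a difference of -0.06 ± 0.05 log2 (95% interval -0.16 to 0.03, limma adjusted p = 0.574).

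Whether the genes differed from each other in these contrasts was tested by exact two-sided permutation, a comparison chosen after the values were seen. For day 2 minus day 1, the difference of Pdh from santa-maria was -0.21 log2 and that of ninaB from santa-maria was -0.19 log2. Both had an exact p of 0.0312, the smallest that 6 pairs allow, and 0.0938 after adjustment over the 6 tests made. Pdh and ninaB differed by -0.02 log2 (exact p = 0.531, adjusted p = 0.637). For thermophase minus cryophase the 3 pairs differed by -0.10 to -0.03 log2, with exact p between 0.346 and 0.686.

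**Figure D3:**
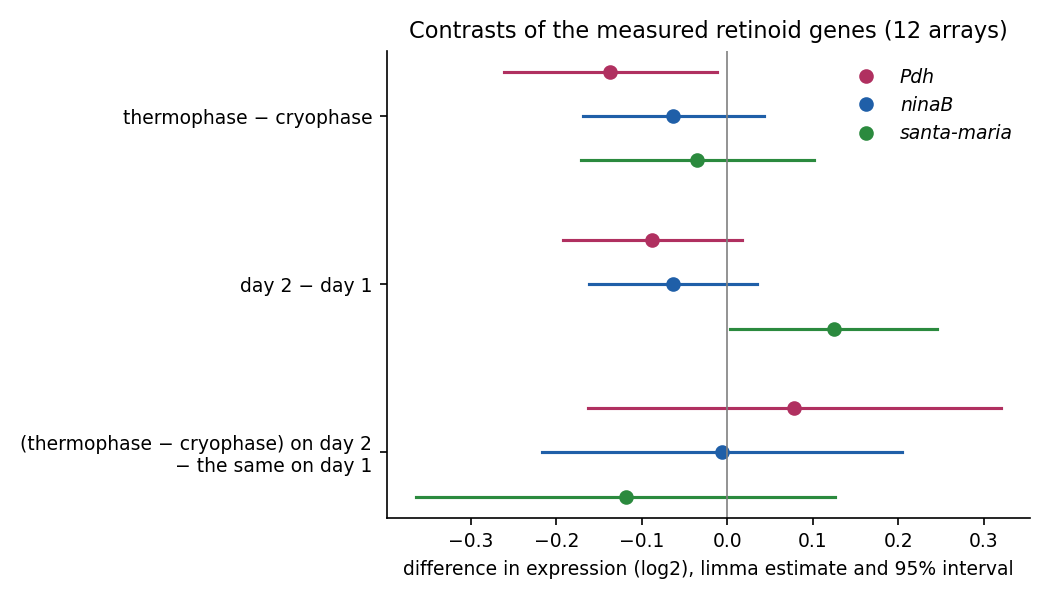
limma estimates (points) and 95% intervals (lines) in log2 for Pdh, ninaB and santa-maria in the 3 contrasts. For thermophase minus cryophase the interval of Pdh lay below 0, for day 2 minus day 1 that of santa-maria lay above 0, and every interval of the interaction spanned 0.

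Markers also moved between the days. The mean of the 7 photoreceptor markers ranged from 11.26 to 11.40 log2 on day 2 and from 11.13 to 11.25 log2 on day 1. Of the 7, 3 (trp, trpl and inaD, of the phototransduction cascade) were called higher on day 2 and none lower. Over all tested probe sets 0.412% were called higher and 1.2% lower on day 2. The mean of the 7 fat body probe sets ranged from 11.08 to 11.63 log2 on day 2 and from 11.66 to 11.94 log2 on day 1. Of these, 2 were called lower on day 2, beside the 1.2% of all: fit, a female-biased fat body gene, and Yp2, a yolk protein gene. The difference in the mean, -0.49 log2, was carried mostly by fit, at -2.51 log2. Without fit the mean of the other 6 probe sets ranged from 11.84 to 12.14 log2 on day 2 and from 12.05 to 12.18 log2 on day 1, which overlap, and differed by -0.15 log2. Of the 4 glial markers none was called, and their mean ranged from 7.32 to 7.73 log2 on day 2 and from 7.53 to 7.71 log2 on day 1. Of the 7 photoreceptor markers only chp, a gene of the photoreceptor cell surface, had a 24-h local permutation p under 0.05 (0.00488, adjusted p = 0.487). None of the glial or fat body markers had, and 6.13% of all tested probe sets did. Among 3 neuronal, 2 muscle and 3 gut probe sets, none was called between the days or the phases and none had a local p under 0.05. Of the 3 pigment and cone cell markers none was called between the days. Their 3 estimates were all positive (median 0.13 log2), while that of Pdh was negative. AA46 had the highest muscle mean of all arrays, 9.78 log2, and the lowest glial mean, 7.32 log2. The part of these cell types in the day differences of santa-maria, Pdh and ninaB was not tested.

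**Figure D4:**
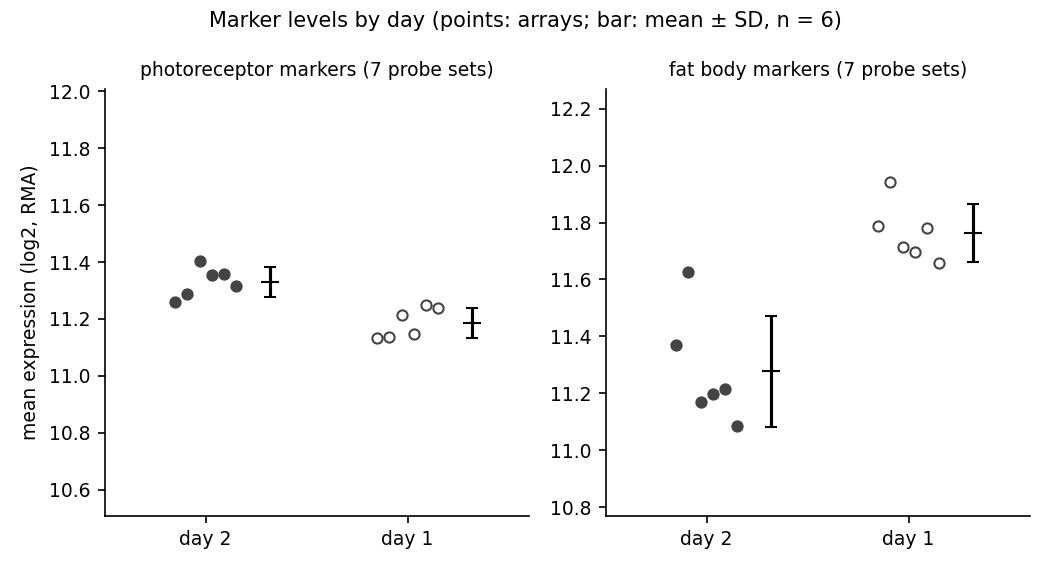
Mean expression (log2, RMA) of the photoreceptor and fat body markers on single arrays of day 2 and day 1, with bars for the mean ± SD (n = 6). Photoreceptor markers averaged 11.33 log2 on day 2 and 11.19 log2 on day 1, and fat body markers, most of whose difference came from fit, averaged 11.28 log2 on day 2 and 11.76 log2 on day 1.

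The contrast between the phases was also compared between days. Pdh had thermophase minus cryophase differences of -0.10 log2 on day 2 and -0.18 log2 on day 1, and the interaction of 0.08 log2 (95% interval -0.16 to 0.32) had a limma adjusted p of 0.998. For ninaB they were -0.07 log2 on day 2 and -0.06 log2 on day 1 (interaction -0.01 log2, limma adjusted p = 0.999). For santa-maria they were -0.09 log2 on day 2 and 0.02 log2 on day 1 (interaction -0.12 log2, 95% interval -0.36 to 0.13, limma adjusted p = 0.998). None of the 3 genes passed, in a background of 0%, and 3.23% of all tested probe sets had an unadjusted p under 0.05. The interaction of Pdh and that of ninaB changed sign when single arrays were left out.

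Other genes of chromophore handling were read from the same arrays. Of 6 listed genes for retinoid binding or oxidation and their CRAL-TRIO relatives, all 6 were tested and 1 had a local p under 0.05, where 6.13% of all tested probe sets did, with none after adjustment, and their median F24 was 0.16 beside 0.13 over all tested probe sets. None was called in thermophase minus cryophase or in day 2 minus day 1. The gene with the low local p was ninaG, an oxidoreductase needed to form 3-hydroxyretinal. Its values were 8.15, 8.004, 7.94, 8.02, 8.26 and 8.18 log2 from AA2 to AA22, and 8.24, 8.03, 8.10, 8.14, 8.27 and 8.25 log2 from AA26 to AA46. On both days it was low from 6 to 14 h and highest at 18 h. The fitted cosine gave 0.26 ± 0.05 log2 (SE, n = 12), or 1.20-fold, with a peak at 20.9 ± 0.8 h, a local permutation p of 0.00547 and an adjusted p of 0.487.

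pinta, a retinoid-binding protein of pigment cells, varied by 0.03 ± 0.06 log2 from peak to trough (local permutation p = 0.860, adjusted p = 1.00). rdhB, a retinol dehydrogenase that forms the chromophore in pigment cells, had 0.15 ± 0.09 log2 (local permutation p = 0.303, adjusted p = 1.00). Like Pdh and ninaB, rdhB had a lower mean on day 2, at 9.53 ± 0.11 log2, against 9.67 ± 0.07 log2 on day 1 (SD, n = 6 each), but the difference of -0.14 ± 0.06 log2 had a limma adjusted p of 0.251. ninaE, which encodes the Rh1 opsin, had no probe set of its own and was not analysed here.

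**Figure D5:**
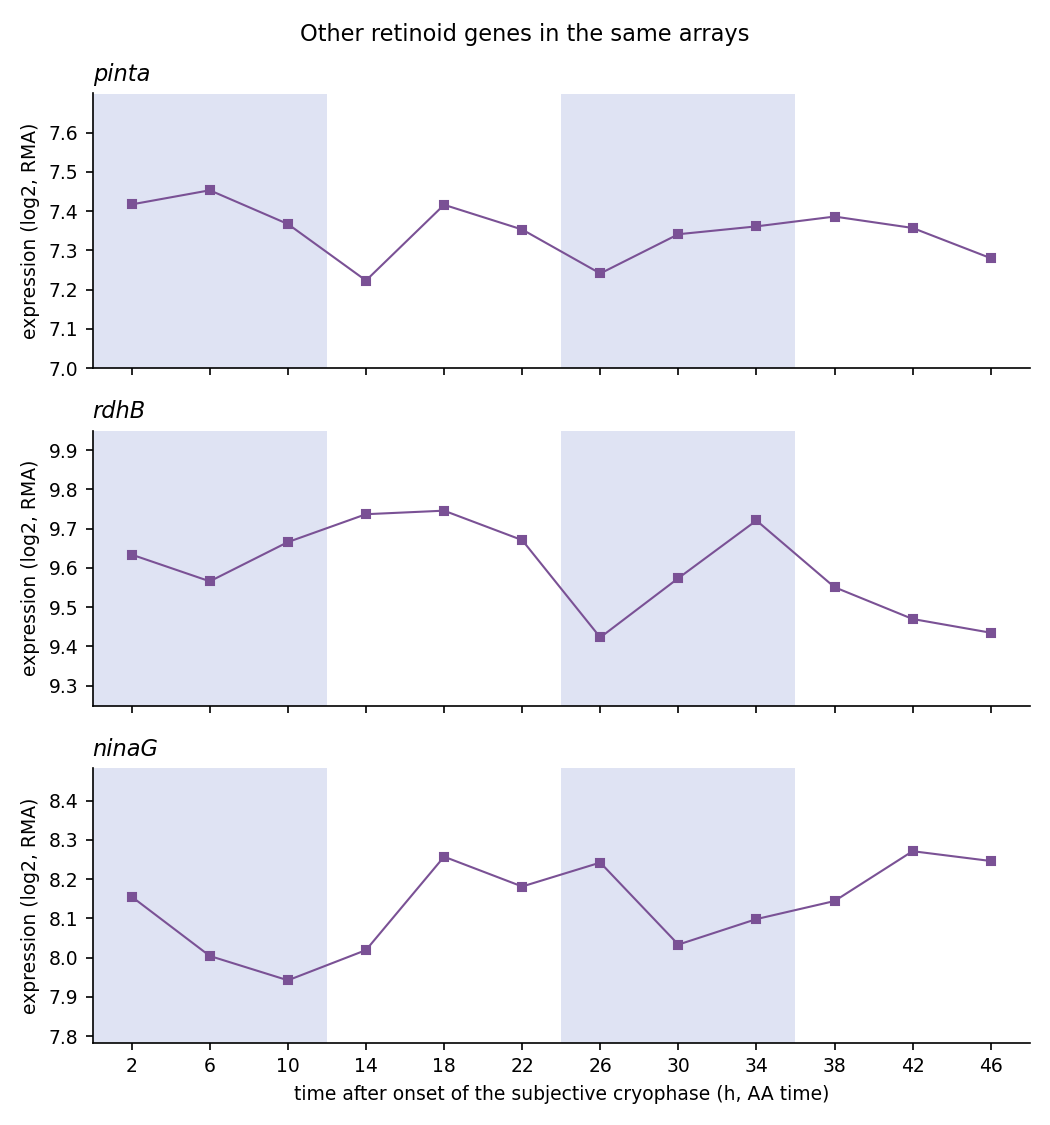
Expression (log2, RMA) of pinta, rdhB and ninaG against AA time in hours, with 1 point per array and the subjective cryophase shaded. ninaG was highest at 18 h on both days, at 8.26 and 8.27 log2, and pinta stayed between 7.22 and 7.45 log2.

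The scavenger receptor relatives of NinaD and Santa-maria were read in the same way. Of 13 other class B genes listed, 9 were tested and 3 had a local p under 0.05, in the background of 6.13% of all tested probe sets, with none after adjustment, and the median F24 was 0.41 beside 0.13 over all tested probe sets. CG7227, with a fitted ratio of 1.39-fold, was highest at 18.5 ± 0.7 h (local permutation p = 0.00542, adjusted p = 0.487). It was also the only one of the 9 called between the phases, a call made for 0.251% of all tested probe sets. CG7227 averaged 5.69 ± 0.11 log2 in the thermophase and 5.34 ± 0.08 log2 in the cryophase (SD, n = 6 each). The difference was 0.34 ± 0.06 log2 (SE, limma adjusted p = 0.0115). CG10345 peaked at 20.3 ± 1.0 h with 1.30-fold (local permutation p = 0.0213, adjusted p = 0.659), and CG2736 at 6.71 ± 1.16 h with 1.15-fold (local permutation p = 0.0253, adjusted p = 0.691). None of the 9 was called between the days.

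The other 3 lists were read in the same way, beside 6.13% of all tested probe sets with a local p under 0.05. Of 9 opsins and arrestins, 3 were tested (Rh7, Arr1 and Arr2), and none had a local p under 0.05. The cyclophilins, the family of NinaA, had 12 of 15 genes tested and the genes for rhodopsin maturation 6 of 14, again with none under 0.05. Their median F24 was 0.10, 0.14 and 0.15, in that order, beside 0.13 over all tested probe sets. No gene of these 3 lists was called in thermophase minus cryophase or in day 2 minus day 1. Over all tested probe sets 0.251% and 1.61% were. In lists this short, the lack of calls does not set these genes apart from the background.

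Across the 12 arrays the measured genes had little in common. Pearson's r was 0.22 between Pdh and ninaB, -0.23 between Pdh and santa-maria and 0.37 between ninaB and santa-maria, and the last was 0.003 without AA46. Of the other retinoid genes only pinta, rdhB and ninaG were compared in this way. Among them pinta was the closest to Pdh, with an r of 0.55 and a rank correlation of 0.36. These values are descriptions over arrays that share their normalization, with no test.

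The genes most like each member were read by the same r over 12 arrays. For Pdh they were CG31793 (0.87), CG6465 (0.86), sPLA2 (0.86), CG31189 (0.84) and RyR (0.83). Their fitted peaks, between 2.12 and 4.20 h, lay near that of Pdh because the genes were chosen by this correlation. RyR itself had a local permutation p of 0.263. ninaB was closest to REPTOR (0.90), chk (0.89), witty (0.89), Tsp96F (0.89) and CG10680 (0.88). santa-maria was closest to Hydr2 (0.94), Nt5c (0.94), Irk2 (0.93), Lsd-1 (0.91) and Cyp6a9 (0.91). No gene was shared between the 3 sets.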

How the data were processed

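The authors deposited RMA output on the log2 scale (version not given in the sources used here). RMA corrects background, quantile-normalizes the arrays and summarizes probes by median polish, which hides any shift common to the majority of transcripts. The number of arrays limits the precision.

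Symbols came from the platform annotation, updated against the RefSeq gene table of Release 6. Of 14010 probe sets, 44 were controls, and 12442 had 1 symbol. As in the study, probe sets with more than 50% of values above the 20th percentile, taken here per array, were tested (11156). Peak times and peak-to-trough differences came from a least-squares cosine of 24 h. The phases, the days (with time of day as a factor) and their interaction were fitted with limma 3.58.1 in R 4.3.3, and p-values were adjusted by the Benjamini-Hochberg method over all tested probe sets. Rhythm was scored in Python 3.11.15 with NumPy 2.4.6. Both procedures were tested on simulated data with 11156 probe sets, drawn independently for each array. There limma called 72% of genes that differed by 0.3 log2 between the phases and 98% at 0.6 log2. Genes simulated at 0.6, 1 and 1.5 log2 entered the same adjustment, and more true differences make its cut-off easier to reach. The real phase contrast called 28 probe sets, so the 72% may be too high for these data. The local permutation p fell below 0.05 for 5.18% of genes with no difference. The simulation held no shift between days and no array that stood apart, so it cannot show how the procedures act where the real arrays have these. No label numbers the replicates. The day of collection served as a block, although the days are successive collections of a set of flies and not biological replicates.

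Named were all members, the 5 genes most correlated with each, list genes at a local p under 0.05, and pinta, rdhB, ninaG and ninaE. The other list and marker genes that the text names were chosen after their values were seen. They are those called between days or phases, the measured opsin and arrestin genes, and the measured markers of pigment and cone cells. The members and lists were chosen with earlier results of these data known. Alternatives were other filters, centring, linear values, array weights, blocks (one of them, permutation within days, chosen after seeing the data) and leaving out each array.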

Additional observations from a re-analysis of the deposited data

How the results depend on the processing

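A filter cannot change a local permutation p, and leaving out either array of a time of day gives the same day fit, so repeated fits were counted once. Of the 186 distinct values for single genes, 174 kept their direction and their side of the threshold, 9 changed sign, 2 lost a call and 1 gained one. The threshold applied to the unadjusted p for the rhythm and to the adjusted p for the contrasts. For the rhythm, direction meant a similar peak time, also where no rhythm was called. Only the rhythm of Pdh was under its threshold in the main fits, so the count of 174 says little about robustness. Leaving out single arrays gave 0 to 1 genes with a 24-h local p under 0.05 (0 without AA14 or AA38) and 0 to 1 genes called between the days (1, santa-maria, without the pair at 22 h), and the counts for the other contrasts stayed at 0. The santa-maria difference between thermophase and cryophase ran from -0.0608 to 0.0052 log2 over these fits (the last without AA34) and was 0.0037 log2 with array weights. The interaction of phase and day ran from -0.0177 to 0.165 log2 for Pdh, which was -0.0097 log2 with array weights, and from -0.0728 to 0.0682 log2 for ninaB. The causes were not tested. With day means removed (the day as a block), the local permutation p of Pdh was 0.00116 in place of 0.0212. With time orders permuted only within days, a block chosen after seeing the data, it was 0.00152, with an adjusted p of 0.289, and no probe set passed after adjustment, while 874 had a local p under 0.05 in place of 684. With the day as a block the limma adjusted p of the phase difference of Pdh was 0.476 in place of 0.626. The blocks changed no call for the 3 genes. Over all tested probe sets, calls between the phases numbered 12 to 33 when single arrays were left out and 47 with array weights, in place of 28. Calls between the days numbered 80 to 379 and 450, in place of 180. With 12 arrays, limma missed part of the simulated phase differences of 0.3 log2, which are larger than any phase difference measured here for the 3 genes.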
